A study of Mus musculus with 6 samples.

Results

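The mitochondrial electron transport chain and ATP synthase are built from subunits of double genetic origin, and the members described here are the nuclear genes for subunits of complexes II, III, IV and V. They are the protein-coding features whose symbols begin with Uqcr, Atp5 or Cox followed by a digit of the structural subunits, together with Sdha, Sdhb, Sdhc and Sdhd. That choice, made on symbols alone, took 46 of the 32067 features of the deposited table: 4 of complex II, 8 of complex III, 17 of complex IV and 17 of complex V. Cyc1, the gene of cytochrome c1 in complex III, does not carry such a symbol and is not among them. A further 10 features with matching symbols are not protein-coding, among them Cox5b-ps and Atp5pb-ps, and were kept out.

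RNA came from whole hippocampus of female wild type C57BL/6J mice, taken at 17 weeks of age. For the OVX+RJ group (3 libraries), food held 1% royal jelly, which honeybees secrete to feed larvae, and it was eaten freely from 8 weeks of age. The OVX group (3 libraries) ate the control diet over the same weeks. Both groups had had both ovaries removed, so the comparison asks what the diet did to hippocampal transcripts in mice without ovaries. A sham-operated group on the control diet is named in the protocols and is not analysed here. The labels call the libraries biological replicates and do not link a library of one group to a library of the other.

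Complex II (succinate dehydrogenase) passes electrons from the citrate cycle to ubiquinone. Complex III hands them on to cytochrome c, complex IV (cytochrome c oxidase) reduces oxygen, and complex V (ATP synthase) uses the proton gradient to make ATP. Complexes III, IV and V each combine nuclear subunits with a few encoded in mitochondrial DNA, while all subunits of complex II are nuclear. Neurons depend on this chain for most of their ATP, since ion pumping at synapses is costly.

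Library totals were 36084588.5 to 39368206 counts in OVX+RJ and 34718596.5 to 58163785 counts in OVX. Members took between 0.564% and 0.598% of the counts of a library, and mitochondrially encoded genes took 6.46% to 6.91%. OVX+RJ 1 stood apart from the other libraries, with a mean Pearson correlation of 0.983 to them across genes, against 0.986 to 0.987 for the others. Markers of hippocampal neurons and glia were present in every library: summed over each marker list in counts per 1000000 counts over all rows (CPM), dentate granule cell genes lay at 680 to 985 CPM in OVX+RJ against 772 to 1030 CPM in OVX, and interneuron genes at 1220 to 1299 CPM in OVX+RJ against 1202 to 1292 CPM in OVX. In bulk tissue of this kind, fewer cells of a type and less RNA per cell cannot be told apart.

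No member passed the test between diets. The edgeR quasi-likelihood test, adjusted by Benjamini-Hochberg over 18629 tested features, called 0 of them at an adjusted p of 0.05 (0.0% of features), and DESeq2 called 12 of 17902 (0.067%), none of them a member. The members' adjusted p in edgeR with Benjamini-Hochberg adjustment ran from 0.986 to 0.998. At an unadjusted p under 0.05, edgeR gave 398 higher features (2.14%) and 356 lower ones (1.91%). Among the members, 3 lay below that unadjusted level with lower values in OVX+RJ (Atp5k, Cox8a and Uqcr11) and 0 with higher values. Cox8b and Cox7b2 had too few counts to be tested, which left 44 members.

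The small values pointed in different directions in different complexes. Of the 44 tested members, 30 had a log2 fold change (OVX+RJ over OVX) below 0 (68.2%), with a median of -0.057, while 50.4% of all tested features did, with a median of -0.0015. Complex IV held 14 of its 15 tested members below 0, with a median of -0.10. Complex II had 0 of 4 below 0 and a median of 0.046. Between these stood complex III, with 5 of 8 below 0 and a median of -0.05, and complex V, with 11 of 17 below 0 and a median of -0.04. OVX 3 and OVX 1 moved the overall median most: it was -0.029 without OVX 3, with 25 members below 0, and -0.095 without OVX 1, with 36 below 0. Without OVX+RJ 1, the library that stood apart, it was -0.055, with 33 below 0.

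**Figure D1:**
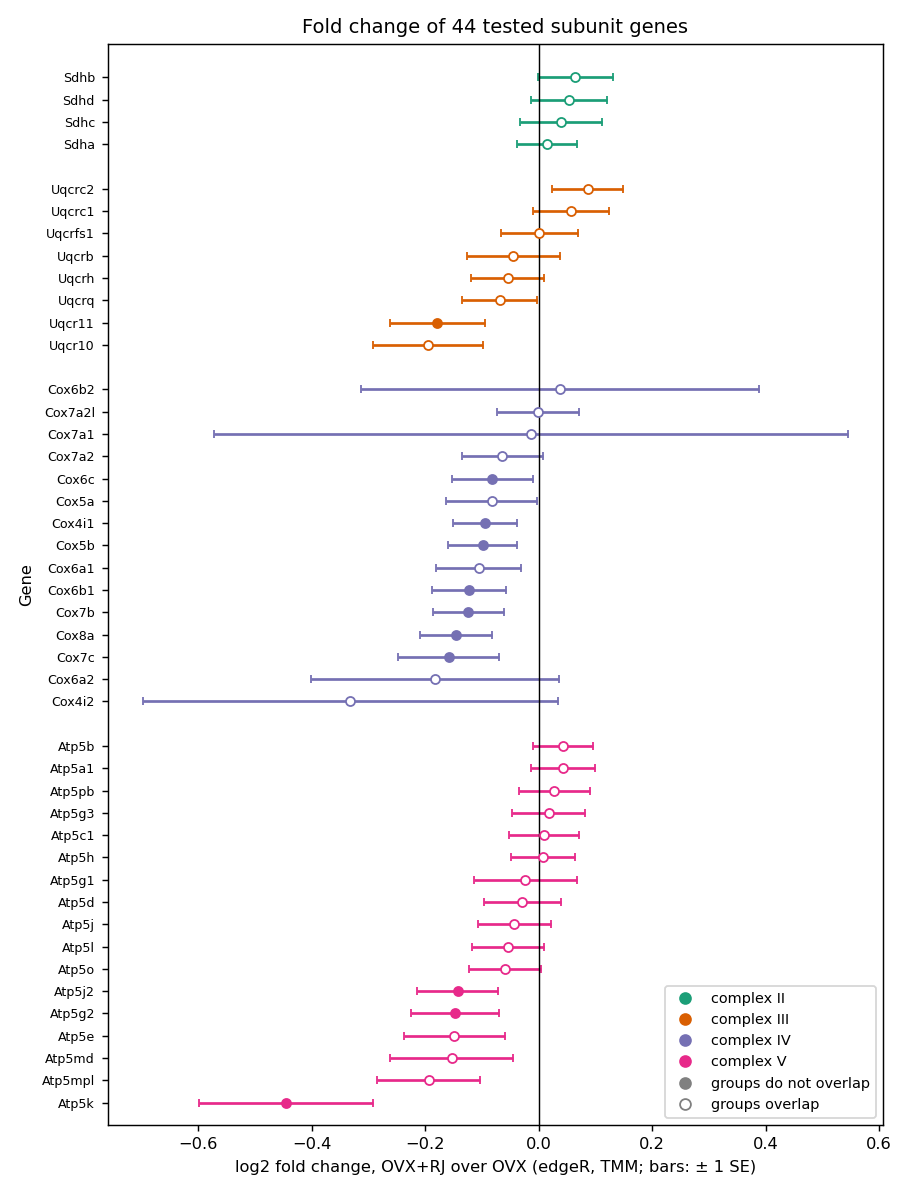
Log2 fold change of OVX+RJ over OVX (horizontal axis) for the 44 tested members, grouped by complex down the page. Points are edgeR estimates, bars are 1 standard error each way, and filled points mark the 11 members whose groups do not overlap in CPM over all rows. Complex II sits at or right of 0 and nearly all of complex IV left of it, and Atp5k has the lowest value of all, -0.44.

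Values in CPM over all features did not overlap between diets at 11 members, all with OVX+RJ below OVX: Atp5g2, Atp5j2, Atp5k, Cox4i1, Cox5b, Cox6b1, Cox6c, Cox7b, Cox7c, Cox8a and Uqcr11. Across all tested features 5.95% lay apart in that direction and 4.53% in the other, where 0 members did. The lower share was larger for short mRNAs. Among other protein-coding genes with a mean of at least 20 CPM, 21.7% lay apart lower at an mRNA of 600 bases or less. It was 19.0% above 600 and up to 1000 bases, and 5.18% above 1000 bases. The members gave 33.3% of 18, 30.8% of 13 and 7.69% of 13 in these classes. The count of members apart depends on how libraries are scaled. With TMM factors (edgeR's normalisation factors, which discount features that differ strongly between libraries) 6 members remained apart: Atp5g2, Atp5k, Cox5b, Cox7b, Cox7c and Cox8a, against 5.17% of features.

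**Figure D2:**
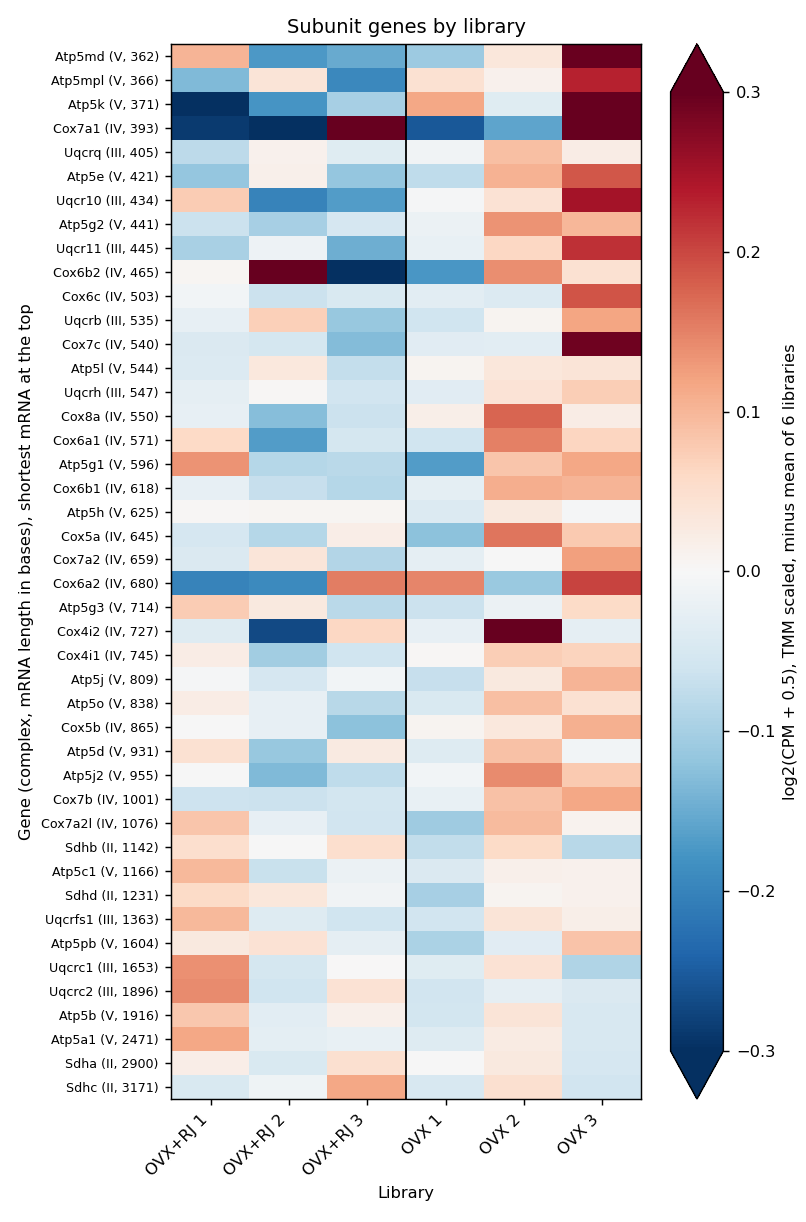
Level of each tested member in each library, as log2 of TMM-scaled CPM plus 0.5 minus the member's mean over the 6 libraries (colour, clipped at 0.3), with OVX+RJ libraries left of OVX libraries. Members are in rows from the shortest mRNA at the top to the longest, with complex and length in bases beside the name. OVX 3 has the highest values for many members with short mRNAs, and OVX 1 is closer to the OVX+RJ libraries than OVX 2 and OVX 3 are.

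In complex II all 4 log2 fold changes were above 0, none by more than its standard error. Sdha, the flavoprotein that oxidises succinate, had 411, 404 and 430.5 CPM in OVX+RJ against 418, 424 and 400.4 CPM in OVX. Its partner Sdhb carries the iron-sulphur clusters and had 81.8, 81.1 and 84.0 CPM in OVX+RJ against 77.5, 84.2 and 76.2 CPM in OVX. In both genes the ranges of the diets overlapped. The membrane anchors Sdhc and Sdhd hold the ubiquinone site. Sdhc had 59.6, 62.7 and 68.6 CPM in OVX+RJ against 61.5, 65.1 and 60.4 CPM in OVX, and Sdhd had 64.6, 65.4 and 63.2 CPM in OVX+RJ against 59.7, 63.9 and 64.0 CPM in OVX. Sdhb had the highest log2 fold change of the 4, 0.06 (SE 0.07). The 4 genes together summed to 626 ± 18.0 CPM in OVX+RJ, with 618 ± 18.1 CPM in OVX (mean ± SD of 3 libraries), a difference of 1.17% within the spread of either group.

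In complex III the large core subunits and the small ones took different signs. Uqcrc2 and Uqcrc1, the core proteins that face the matrix, had log2 fold changes above 0: Uqcrc2 had 204, 182 and 196 CPM in OVX+RJ against 183, 186 and 183 CPM in OVX, with a log2 fold change of 0.09 (SE 0.06, edgeR unadjusted p = 0.200). For Uqcrc1 the values were 171, 154 and 159.7 CPM in OVX+RJ against 156, 164 and 149 CPM in OVX. Uqcrfs1, the Rieske iron-sulphur protein that takes electrons from ubiquinol, had 93.4, 87.3 and 86.0 CPM in OVX+RJ against 86.6, 91.8 and 90.2 CPM in OVX, and its log2 fold change was 0.0011. These 3 genes all overlapped between diets.

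All 5 small subunits of complex III had log2 fold changes below 0. Uqcr11, one of the smallest subunits of the complex, had 41.1, 44.7 and 40.7 CPM in OVX+RJ against 44.7, 47.0 and 52.4 CPM in OVX, with a log2 fold change of -0.18 (SE 0.08, edgeR unadjusted p = 0.0495). The groups were apart only narrowly, OVX+RJ 2 lying next to OVX 1, and without OVX 3 the log2 fold change was -0.11. Uqcr10, another small membrane subunit, had 48.8, 41.4 and 42.3 CPM in OVX+RJ against 47.8, 48.9 and 56.4 CPM in OVX (log2 fold change -0.19, SE 0.10). OVX+RJ 1 lay among the OVX values there, and without OVX 3 the log2 fold change was -0.11. Uqcrh, the acidic hinge protein that helps cytochrome c1 dock with cytochrome c, had 72.8, 76.4 and 73.1 CPM in OVX+RJ against 74.7, 78.0 and 79.8 CPM in OVX, with overlap. Uqcrb and Uqcrq had log2 fold changes of -0.04 and -0.07. The small subunits summed to 266, 276 and 262 CPM in OVX+RJ against 276, 289 and 303 CPM in OVX, a difference of -7.42%. The core summed to 468, 424 and 441 CPM in OVX+RJ against 426, 441 and 423 CPM in OVX. As group values this was 444 ± 22.4 CPM in OVX+RJ, with 430.1 ± 9.95 CPM in OVX (SD, n = 3 each), a difference of 3.30% with overlap. Without OVX+RJ 1, the highest library for the core, log2 fold changes were 0.038 for Uqcrc2, 0.0037 for Uqcrc1 and -0.048 for Uqcrfs1. As a share of the core, the small subunits came to 56.8%, 65.2% and 59.3% in OVX+RJ and 64.7%, 65.4% and 71.8% in OVX, and these ranges overlapped.

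Of complexes II to V, complex IV alone had a summed CPM over all rows that did not overlap between diets. The nuclear subunits of complex I and the cytosolic ribosomal proteins, described further on, shared that trait. Complex IV summed to 1377, 1339 and 1352 CPM in OVX+RJ against 1397, 1493 and 1509 CPM in OVX. As group values this was 1356 ± 19.4 CPM in OVX+RJ, with 1466 ± 60.9 CPM in OVX (SD, n = 3 each), a difference of -7.50%. OVX 1, the lowest OVX library, was only slightly above OVX+RJ 1. With TMM factors (0.978 for OVX+RJ 1 and 1.01 for OVX 1) OVX+RJ 1 came out above OVX 1, so the groups overlapped. In CPM over all rows the difference was -9.65% without OVX 1 and -6.13% without OVX 3. Set against complex II, a ratio that does not depend on how libraries are scaled, complex IV came to 223%, 218% and 209% in OVX+RJ and 226%, 234% and 251% in OVX. That ratio also kept the diets apart, by the small gap between OVX+RJ 1 and OVX 1. It is not free of mRNA length, since complex II has longer mRNAs than most of complex IV.

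**Figure D3:**
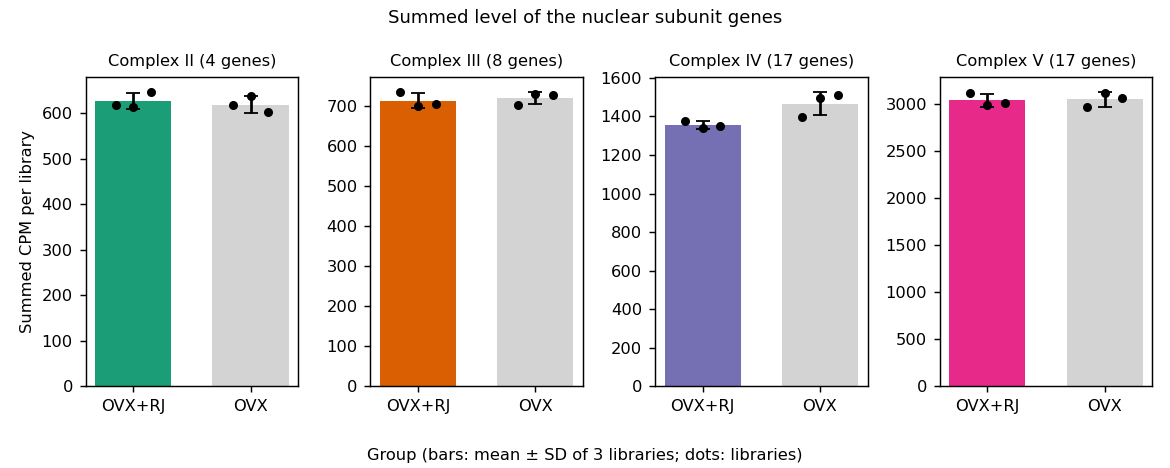
Summed CPM over all rows of each complex, 1 panel per complex, with OVX+RJ left of OVX. Bars are group means, error bars are 1 SD each way (n = 3) and dots are libraries, with every vertical axis starting at 0. Groups overlap in complexes II, III and V, and in complex IV the OVX+RJ libraries lie at 1339 to 1377 CPM, below the OVX libraries at 1397 to 1509 CPM. With TMM factors, which are not applied here, complex IV overlaps too.

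Of the 3 complex IV genes with the most counts, 2 kept the diets apart. Cox4i1, the regulatory subunit to which adenine nucleotides bind, had 256, 242 and 249 CPM in OVX+RJ against 262, 272 and 270.4 CPM in OVX (log2 fold change -0.09, SE 0.06). Cox8a, a small membrane-spanning subunit, had 169.9, 163 and 169.9 CPM in OVX+RJ against 181, 199.9 and 179 CPM in OVX, with a log2 fold change of -0.15 (SE 0.06, edgeR unadjusted p = 0.0456). Every OVX+RJ library was below every OVX library at both genes, and without OVX 2, its highest library, Cox8a was at -0.09. Cox6a1, which lies near the dimer interface, had 183, 161 and 174 CPM in OVX+RJ against 174, 199.7 and 188 CPM in OVX, where OVX+RJ 1 and OVX 1 crossed.

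The matrix-side pair of complex IV gave one gene apart and one overlapping. Cox5b, which binds zinc, had 135, 136 and 127 CPM in OVX+RJ against 140.3, 141 and 149 CPM in OVX (log2 fold change -0.10, SE 0.06). Cox5a had 70.4, 70.7 and 76.0 CPM in OVX+RJ against 69.2, 83.5 and 78.9 CPM in OVX, and its lowest value of all was in OVX 1. Cox5b has a pseudogene, Cox5b-ps, with 364, 329 and 350 counts in OVX+RJ and 300, 510 and 436 counts in OVX, so some reads of Cox5b may be divided between them. All pseudogenes matching the symbols came to 0.18% to 0.23% of the members' counts.

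Other small subunits of complex IV lay lower as well, by narrow margins. Cox6b1, which faces the intermembrane space, had 84.2, 83.9 and 82.9 CPM in OVX+RJ against 86.7, 94.5 and 94.0 CPM in OVX (log2 fold change -0.12, SE 0.06). Cox7b, a membrane-spanning subunit needed for assembly, had 93.8, 96.4 and 96.9 CPM in OVX+RJ against 99.7, 107 and 109 CPM in OVX (log2 fold change -0.12, SE 0.06). Neither gene overlapped between diets. Cox7c had 90.4, 92.4 and 87.4 CPM in OVX+RJ against 93.9, 93.3 and 117 CPM in OVX. Cox6c had 129.9, 128.6 and 130.1 CPM in OVX+RJ against 132.0, 130.1 and 152.3 CPM in OVX. At Cox6c the gap between OVX+RJ 3 and OVX 2 was smaller than the rounding shown. OVX 3 stood well above the rest at both genes, and without it the log2 fold change went to -0.04 for Cox7c and to 0.00021 for Cox6c, against -0.16 and -0.08 with it.

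Several complex IV subunits have tissue-specific paralogs, and the brain forms supplied nearly all of the RNA under either diet. Cox6a2, the heart and skeletal muscle form, made up 1.15%, 1.36% and 1.66% of the Cox6a1 and Cox6a2 sum in OVX+RJ and 1.66%, 1.17% and 1.59% in OVX. Cox4i2, the form best known from lung, made up 0.202%, 0.157% and 0.244% of the Cox4i pair in OVX+RJ and 0.209%, 0.296% and 0.199% in OVX. Both shares overlapped between diets. Cox7a1, a muscle form, had 9, 9 and 30 counts in OVX+RJ and 9, 18 and 30 counts in OVX. Its widely expressed paralog Cox7a2 had 60.5, 65.8 and 60.2 CPM in OVX+RJ against 63.1, 63.8 and 69.5 CPM in OVX, with overlap. Cox8b, another muscle form, had 6, 0 and 6 counts in OVX+RJ and 0, 4 and 3 counts in OVX, and Cox7b2, a testis form, had 3, 6 and 0 counts in OVX+RJ and 7, 5 and 5 counts in OVX. At these counts no difference between diets was detectable. Cox6b2, the other testis form, held 1.19%, 1.81% and 0.763% of the Cox6b pair in OVX+RJ and 0.987%, 1.24% and 1.14% in OVX, with overlap. Cox7a2l, which helps to join complexes III and IV and of which C57BL/6 mice carry a shortened allele, held 62.2%, 59.1% and 60.4% of the Cox7a trio in OVX+RJ and 58.8%, 61.7% and 58.1% in OVX.

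Complex V held the most RNA of the complexes, and its sum was level between diets: 3038 ± 66.8 CPM in OVX+RJ, with 3049 ± 78.2 CPM in OVX (SD, n = 3 each), a difference of -0.35%. The catalytic head leads that sum. Atp5b (beta, which holds the catalytic sites) had 992, 944 and 974 CPM in OVX+RJ against 933, 986 and 928 CPM in OVX. Atp5a1 (alpha) had 784, 729 and 733 CPM in OVX+RJ against 728, 754 and 716 CPM in OVX. Each had a log2 fold change of 0.04 (SE 0.05 for Atp5b and 0.06 for Atp5a1), with overlapping groups. Atp5c1, the gamma subunit that turns inside the head, had 168, 154 and 159 CPM in OVX+RJ against 157, 162 and 162 CPM in OVX. Atp5d (delta) and Atp5e (epsilon), which sit at the foot of the rotor stalk, had log2 fold changes of -0.03 and -0.15. The stator genes Atp5pb, Atp5h, Atp5j and Atp5o, which hold the head still, ran from -0.06 to 0.03.

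The rotor ring of ATP synthase is made of subunit c, which 3 genes encode as the same mature protein with different import sequences. Atp5g3 had 144, 144 and 133 CPM in OVX+RJ against 135, 138 and 145 CPM in OVX. Atp5g1 had 94.4, 83.2 and 83.5 CPM in OVX+RJ against 79.0, 93.2 and 95.2 CPM in OVX. Both overlapped. Atp5g2 had 34.3, 34.4 and 35.6 CPM in OVX+RJ against 36.6, 40.4 and 39.4 CPM in OVX, with a log2 fold change of -0.15 (SE 0.08). Of the 3 genes only Atp5g2 was apart, and as a share of the ring's RNA it held 12.6%, 13.2% and 14.1% in OVX+RJ and 14.6%, 14.9% and 14.1% in OVX, with OVX+RJ 3 at the level of OVX 3.

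The 5 small membrane subunits around the ring (Atp5k, Atp5l, Atp5j2, Atp5mpl and Atp5md, known for joining ATP synthase into dimers and for its stability) all had log2 fold changes below 0, with a median of -0.15. Atp5k, subunit e, had 9.85, 11.4 and 12.1 CPM in OVX+RJ against 14.2, 12.6 and 19.0 CPM in OVX. It had the largest difference of the tested members, a log2 fold change of -0.44 (SE 0.15, edgeR unadjusted p = 0.0158, adjusted p = 0.986 after Benjamini-Hochberg). OVX+RJ 3 and OVX 2 were close, OVX 3 was far above, and without OVX 3 the value was -0.25. Atp5mpl had 37.2, 43.1 and 36.6 CPM in OVX+RJ against 43.5, 42.1 and 49.0 CPM in OVX (log2 fold change -0.19, SE 0.09, and -0.12 without OVX 3). Atp5j2, subunit f, had 60.9, 57.3 and 59.4 CPM in OVX+RJ against 62.7, 69.0 and 65.9 CPM in OVX (log2 fold change -0.14, SE 0.07). Only Atp5j2 of this last pair kept the diets apart. Summed, these 5 genes had 244.1, 243.0 and 235.0 CPM in OVX+RJ against 253.7, 263.5 and 287.4 CPM in OVX, a difference of -10.2%. Relative to alpha plus beta they came to 13.7%, 14.5% and 13.8% in OVX+RJ and 15.3%, 15.1% and 17.5% in OVX, without overlap.

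Levels of different genes can be set side by side only after division by transcript length. In CPM per kilobase of mRNA, the mean level of Atp5b was highest, at 506 in OVX+RJ and 495 in OVX. Cox4i1 came next at 334 in OVX+RJ and 359.8 in OVX, and Cox8a had 305 in OVX+RJ and 339 in OVX. Atp5a1 had 303 in OVX+RJ and 297 in OVX, and Cox6a1 had 302 in OVX+RJ and 328 in OVX, so the order of these last 3 genes differs between the diets. Atp5k at 30.0 in OVX+RJ and 41.1 in OVX and Sdhc at 20.1 in OVX+RJ and 19.7 in OVX were the lowest outside the rare paralogs. Lengths are those of 1 chosen transcript per gene from GENCODE M21, and levels per kilobase move with that choice: annotated transcripts of Sdhc run from 815 to 3171 bases and those of Atp5g1 from 596 to 4715.

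The sign of a member's difference followed the length of its mRNA. Across the 44 tested members, log2 fold change and log2 mRNA length had a Spearman correlation of 0.668 (Pearson 0.611). Over the 40 members with a mean of at least 5 CPM it was 0.799 (Pearson 0.726). The points share the same 6 libraries. Of the 18 members with an mRNA of 600 bases or less, 17 had a log2 fold change below 0, with a median of -0.13. Above 600 and up to 1000 bases it was 11 of 13, with a median of -0.083. Above 1000 bases it was 2 of 13 (Cox7b and Cox7a2l), with a median of 0.039. The members above 1000 bases include all of complex II, the core of complex III and the alpha, beta and gamma subunits of complex V. The ratio of complex IV to complex II therefore sets mostly shorter mRNAs against longer ones. So do the ratios of small subunits to the core in complex III and to alpha plus beta in complex V. The part of mRNA length in these ratios was not tested.

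Other genes of the same length showed the same trend, so it is not shown to be particular to these complexes. Of 60 other protein-coding genes of 600 bases or less with a mean of at least 20 CPM, 88.3% had a log2 fold change below 0, with a median of -0.10. In the class above 600 and up to 1000 bases it was 77.2% of 237, with a median of -0.049, and above 1000 bases 46.1% of 7292, with a median of 0.0085. Over all 14669 protein-coding genes with a length the Spearman correlation was 0.130. By library, the short members' median deviation from their own means was -0.034, -0.058 and -0.090 in OVX+RJ 1, 2 and 3 and -0.033, 0.042 and 0.15 in OVX 1, 2 and 3, on the log2 scale. OVX 1 was level with the highest OVX+RJ library, and OVX 3 was the highest of all. When each library's trend with mRNA length was removed in the fit, an alternative added after the data were seen, 19 of 44 members were below 0 and their median was 0.014.

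**Figure D4:**
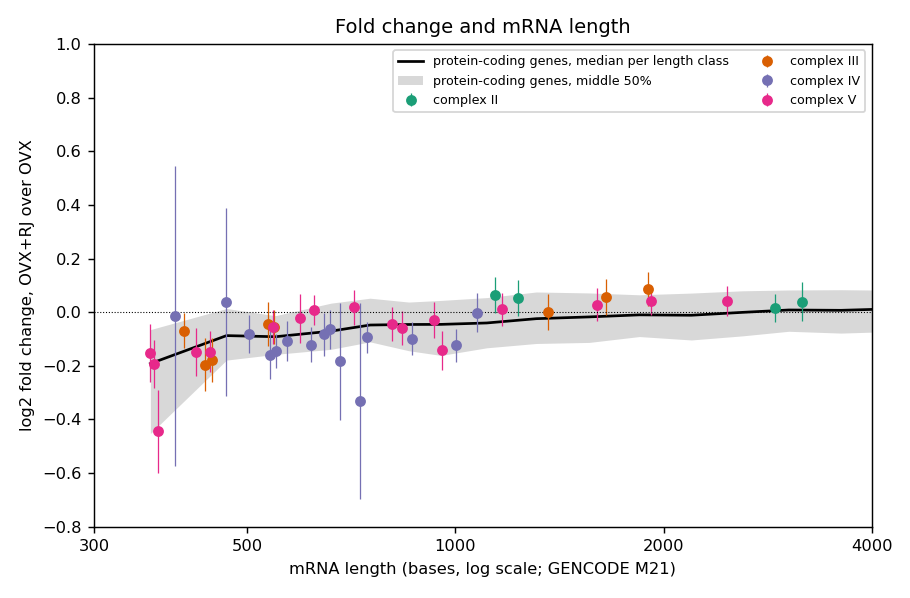
Log2 fold change of OVX+RJ over OVX (vertical axis) against mRNA length in bases (horizontal log axis) for the 44 tested members, coloured by complex, with bars of 1 standard error each way. The black line is the median of tested protein-coding genes by length class and the grey band their middle 50%. Members below 1000 bases lie mostly under 0, as the black line does there, and most longer members lie at or above 0. Cox7b, at 1001 bases, lies under 0 at -0.12.

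Genes that work with the members gave a mixed picture. Nuclear subunits of complex I, the NADH dehydrogenase, had 31 of 38 log2 fold changes below 0, with a median of -0.068, and 0 passed the test in either direction. They summed to 2355, 2328 and 2313 CPM in OVX+RJ against 2366, 2446 and 2490.4 CPM in OVX, a difference of -4.19% without overlap, as in complex IV. With TMM factors this sum overlapped between diets, again as in complex IV. Their lowest unadjusted p in edgeR belonged to Ndufa11, at 35.2, 36.0 and 35.7 CPM in OVX+RJ against 40.5, 43.3 and 45.1 CPM in OVX, and to Ndufb1, at 11.8, 10.5 and 10.5 CPM in OVX+RJ against 12.7, 14.6 and 18.1 CPM in OVX. Both are small accessory subunits, and neither overlapped between diets. The mitochondrially encoded subunits of complexes III to V had 3 of 6 below 0 and a median of 0.0023. Nuclear complex IV as a share of the mitochondrially encoded Cox RNA came to 4.97%, 5.02% and 5.14% in OVX+RJ and 5.25%, 5.63% and 5.42% in OVX, without overlap. Nuclear complex IV again holds mostly short mRNAs, and the part of mRNA length in this share was not tested.

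Assembly factors of complexes II to V, which insert cofactors and join subunits, had 15 of 32 below 0 and a median of 0.0065. Citrate cycle enzymes had 8 of 13 below 0 and a median of -0.0031. Regulators of mitochondrial gene expression had 4 of 12 below 0 and a median of 0.027. Their lowest unadjusted p in edgeR belonged to Ppargc1b and Tfb2m. Ppargc1b, a coactivator of mitochondrial biogenesis, had 8.42, 7.85 and 9.70 CPM in OVX+RJ against 7.40, 6.00 and 8.07 CPM in OVX, with overlap. Tfb2m had 24.7, 23.2 and 24.2 CPM in OVX+RJ against 22.0, 21.9 and 21.6 CPM in OVX, without overlap. Electron carriers and their dehydrogenases had 4 of 7 below 0 and a median of -0.030. Gpd2 of that list had 211, 207 and 206 CPM in OVX+RJ against 203, 196 and 197 CPM in OVX, without overlap. In each of these lists 0 genes passed edgeR's test with Benjamini-Hochberg adjustment. Cytosolic ribosomal proteins, another large family of short mRNAs, had 73 of 83 tested members below 0 and a median of -0.088. They summed to 8943, 8962 and 8457 CPM in OVX+RJ against 8971, 9482 and 9727 CPM in OVX. That was a difference of -6.45% without overlap in CPM over all rows, as in complex IV.

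Summed vascular markers were also apart between diets, on the same side as the short members, and their part in the members' values was not tested. Endothelial genes had 8 of 10 log2 fold changes below 0 and summed to 206 to 229 CPM in OVX+RJ against 248 to 262 CPM in OVX. Pericyte and smooth muscle genes had 7 of 8 tested below 0 and summed to 163 to 173 CPM in OVX+RJ against 183 to 192 CPM in OVX. No marker of either list was at 0 in all libraries. Summed neuronal, glial and choroid plexus markers overlapped between diets, yet in several of these lists all tested members had the same sign. Dentate granule cell genes had 13 of 13 log2 fold changes below 0, with a median of -0.15, and 3 of them were at an unadjusted p under 0.05 in edgeR. Choroid plexus genes had 7 of 7 tested above 0, with a median of 0.72 and 3 at that level, and summed to 26.9 to 54.6 CPM in OVX+RJ against 25.7 to 36.1 CPM in OVX. Oligodendrocyte genes had 8 of 8 above 0, with a median of 0.068, and blood genes 5 of 5 below 0, with a median of -0.14. None of these genes passed the adjusted test, and the part of these shifts in the members' values was not tested either.

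Promoters of respiratory chain genes are known for sites of ETS-family factors such as GABPA and of NRF1, which couple nuclear subunit genes to one another. RefSeq promoters on GRCm38.p6, 300 bases each (250 before and 50 after the start), were matched for 36 of the 46 members. Those of 4 members are printed from 200 bases before the start up to it, on the strand of the gene, to show the motifs at the member with the largest difference (Atp5k), at a low member of complex III (Uqcr11), at an abundant complex IV subunit (Cox6a1) and at the most abundant member (Atp5b). Capitals mark CCGGAAG (the ETS core), CGCATGCG (the core of the NRF1 palindrome) or GGGCGG (the GC box of SP factors) on either strand. Atp5k lies at chr5:108434400-108434599 (minus strand), Uqcr11 at chr10:80406822-80407021 (minus), Cox6a1 at chr5:115348959-115349158 (minus) and Atp5b at chr10:128083107-128083306 (plus).
Atp5k: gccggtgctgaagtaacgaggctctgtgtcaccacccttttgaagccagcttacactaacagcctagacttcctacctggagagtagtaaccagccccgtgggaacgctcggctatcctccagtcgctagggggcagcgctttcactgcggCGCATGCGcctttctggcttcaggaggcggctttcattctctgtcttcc
Uqcr11: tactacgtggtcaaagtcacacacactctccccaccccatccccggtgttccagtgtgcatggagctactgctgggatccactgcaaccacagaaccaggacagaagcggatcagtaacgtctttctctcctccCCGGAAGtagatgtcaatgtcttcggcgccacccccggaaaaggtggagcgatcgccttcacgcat
Cox6a1: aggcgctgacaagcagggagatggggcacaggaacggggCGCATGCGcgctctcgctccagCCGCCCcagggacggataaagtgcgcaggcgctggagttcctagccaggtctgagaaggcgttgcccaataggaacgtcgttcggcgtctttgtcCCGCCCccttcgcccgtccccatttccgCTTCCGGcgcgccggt
Atp5b: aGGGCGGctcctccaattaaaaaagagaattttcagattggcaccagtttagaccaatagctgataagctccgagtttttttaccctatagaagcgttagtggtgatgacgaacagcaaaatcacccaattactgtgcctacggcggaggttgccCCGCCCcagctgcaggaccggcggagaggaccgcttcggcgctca

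In these windows Atp5k had an NRF1 match and Uqcr11 an ETS match, Cox6a1 had all 3 motifs, and Atp5b had GC boxes on either strand. A gene was counted if any of its promoters held the motif. CCGGAAG stood in the promoters of 13 of 36 members (36.1%). It stood in 9.93% of all 27025 genes with such promoters and in 15.7% of those that are protein-coding in the deposited table. CGCATGCG stood in 7 of 36 (19.4%), against 2.07% of all these genes and 3.38% of protein-coding ones. GGGCGG was in 38.9% of the members, 38.2% of all these genes and 60.1% of protein-coding ones. The motif for YY1, AAGATGGC, was in 3 of 36 (8.33%), against 3.19% of all and 4.20% of protein-coding ones. That for estrogen-related receptors, TNAAGGTCA, was in 2 of 36 (5.56%), against 1.43% of all and 1.06% of protein-coding ones. Each motif was searched on both strands, and none of these motifs contains another. Of the tested members with CCGGAAG, 10 of 13 had a log2 fold change below 0, and of those without it 13 of 21 did. For CGCATGCG it was 6 of 7 with and 17 of 27 without, and for GGGCGG 8 of 13 with and 15 of 21 without. For the YY1 motif it was 2 of 3 with and 21 of 31 without. For that of estrogen-related receptors it was 0 of 2 with and 23 of 32 without. A link between motif and direction was not tested.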

How the data were processed

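Per the labels' protocols, hippocampi were snap-frozen, and a directional kit was used for libraries of poly(A) RNA. The submitters' processing notes name StringTie 2.2.1, HISAT2 2.2.1, fastp 0.23.4, bcl2fastq 2.19 and GRCm39, without roles. How strand and multiply aligned reads were counted, and with which annotation, is not given in the sources used here, and paralogs or pseudogenes may share counts. The authors deposited expected counts per symbol and library, unscaled. They were rounded to whole numbers, which altered 51 features.

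The software was edgeR 4.0.16, limma 3.58.1 and DESeq2 1.42.0 under R 4.3.3. After filterByExpr and TMM scaling, glmQLFit and glmQLFTest compared OVX+RJ with OVX, and p-values were adjusted by Benjamini-Hochberg over all 18629 tested features (threshold 0.05). Values for a library are CPM over all rows, that is, with no TMM factor. The standard errors come from limma on log2 CPM (prior count 2). Sums, shares and counts of members carry no test, as 3 against 3 libraries cannot reach a two-sided exact permutation p under 0.1. In simulated counts of OVX+RJ against OVX (18629 genes), edgeR found 46.3% of 1.5-fold, 73.6% of 2-fold and 93.4% of 4-fold changes. Those counts were drawn at edgeR's trended dispersion, with changed genes picked from all tested ones. They held no length trend and no library set apart, so these shares are not the power for the members.

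Members and gene lists were chosen with earlier results of these data known. Values in every library are given for all of complex II, for core, paralogous and catalytic subunits, for the 3 members of each complex with the lowest p and for every member whose groups do not overlap. The mRNA length is that of the shortest principal, well-supported transcript in GENCODE M21 (GRCm38), found for 46 of 46 members and 98.1% of tested protein-coding genes; length classes were chosen after the values were seen. Alternatives were other tools, scalings and filters, a replicate block, leaving out single libraries, and removal of the length trend.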

Additional observations from a re-analysis of the deposited data

How the results depend on the processing

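No member was called under any alternative, and the smallest adjusted p of a member was 0.823 (edgeR without OVX+RJ 2, Benjamini-Hochberg). Of 542 log2 fold changes of named members under alternatives, 512 kept their sign and 30, in 11 of 32 members, did not. Of 260 other values, 243 moved by less than the limits set for them.

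The number of genes called went to 12 with DESeq2, 3 with robust empirical Bayes and 0 to 8 with a library left out. The labels do not link libraries by replicate number. Deviations of same-numbered libraries correlated at 0.046, -0.0024 and 0.0031, and those of other pairs at -0.044 to 0.045. With 3 libraries in each group, such values cannot decide whether libraries were paired. With the replicate number as a block 1 gene was called, no member among them, and Uqcrfs1 was at -6.17e-06. Complex II had 0 to 2 members below 0 with a library left out. Members apart with lower values numbered 6 with TMM factors (5.17% of all features), 6 with DESeq2 size factors (5.08%), 7 with upper quartile scaling (5.24%) and 10 over nuclear protein-coding rows (6.04%), all added after the data were seen. Without the length trend, complex III had 2 members below 0 and a median of 0.029, complex V had 7 and 0.019, and the median of complex IV was -0.034; Atp5g1 was at 0.053, Cox6c at 0.0042, Cox7a1 at 0.11, Cox7a2 at 0.0039 and Uqcrh at 0.025. By library totals and by nuclear protein-coding totals, Atp5c1 was at -0.0016 and -0.0018 and Uqcrfs1 at -0.011 in both. Uqcrfs1 was at -0.0025 with limma-voom and -0.0086 with every feature of at least 1 count. The cause of these shifts was not tested, apart from the length trend, which the alternative removes by construction.

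With a library left out, log2 fold changes ran from -0.0032 to 0.068 for Atp5a1, -0.036 to 0.046 for Atp5c1, -0.11 to 0.032 for Atp5g1, -0.014 to 0.061 for Atp5g3, -0.12 to 0.00021 for Cox6c, -0.88 to 0.59 for Cox7a1, -0.0052 to 0.040 for Sdha, -0.012 to 0.074 for Sdhc and -0.048 to 0.031 for Uqcrfs1. Most differences were under 0.2 on the log2 scale, a size at which the power of the test was not measured. Paralogs at under 1 CPM (Cox4i2, Cox7a1, Cox7b2, Cox8b) are limited by counting.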
